A study of Schizosaccharomyces pombe with 3 samples.

Results

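Tubulin in fission yeast is encoded by few genes, and 3 of them carry introns that were counted here, *nda2* (alpha tubulin), *nda3* (beta tubulin) and *gtb1* (gamma tubulin). Every splice junction listed under these symbols was taken, which gave 1 intron of *nda2*, 5 of *nda3* and 6 of *gtb1*, or 12 of the 5368 junctions of the series. RNA came from *Schizosaccharomyces pombe* cells with the allele *prp4-as2*, in which the kinase Prp4 carries a widened ATP pocket and can be blocked with the ATP analogue 1NM-PP1. The 3 libraries were from untreated cells (0 min) and from cells 30 and 60 min after 10 μM of 1NM-PP1, with 1 library for each time. All libraries carried *prp4-as2*, and no library of *prp4*+ cells given 1NM-PP1 was analysed here, so loss of kinase activity and any other action of the compound cannot be told apart.

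Prp4 kinase phosphorylates the splicing factors Prp1 and Srp2 and acts at the precatalytic spliceosome. Alpha and beta tubulin form the dimer from which microtubules are built, and gamma tubulin sits at the spindle pole body and other organising centres, where it nucleates them. The *nda* genes take their name from nuclear division arrest, the phenotype of the cold-sensitive mutants in which they were found.

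Splicing was measured by the reads that cover each 5’ SS. Split reads continue in the next exon and unsplit reads continue in the intron. The Relative Splicing Efficiency Index (RSEI) is the log2 ratio of split to unsplit reads after adding 1 to both, so a RSEI of 0 means equal numbers and 1 unit is a 2-fold change of the ratio. The unspliced share is the percentage of unsplit reads among both kinds. With 1 library for each time there was no spread between cultures and no test could be made. Brackets after a share give its exact (Clopper-Pearson) 95% binomial interval, which covers counting error only, since PCR reads are not independent molecules and introns of 1 gene share transcripts. For background, 4171 introns of 2122 genes had over 10 reads in every library together with a positive untreated RSEI, and all 12 tubulin introns were among them.

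The libraries held 910440, 852562 and 743457 junction reads at 0, 30 and 60 min, of which 6.92%, 30.0% and 22.8% were unsplit. The tubulin introns took 6911, 7464 and 6620 of these reads. Over all kept introns the median RSEI was 3.58, 0.66 and 1.57 at 0, 30 and 60 min. The tubulin introns had medians of 3.89, 1.76 and 2.80.

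All 12 junctions lay on chromosome II at an annotated 5’ SS of the RefSeq assembly ASM294v3, and each was followed by GT. The sequences at these sites are shown because snRNA U1 base-pairs with the end of the exon and the start of the intron, and the tubulin introns differ there. Each line holds the last 3 bases of the exon and the first 6 bases of the intron, 5’ to 3’. Capitals mark bases that match the complement of snRNA U1. Wobble pairs were not counted, so a base in lower case may still pair.
nda2 I: acGGTAtGT
nda3 I: attGTAcGa
nda3 II: ttGGTAAGc
nda3 III: aAtGTAgGT
nda3 IV: gAGGTAgGT
nda3 V: atGGTAtGT
gtb1 I: aAaGTAtGT
gtb1 II: CAGGTtgGT
gtb1 III: agaGTAtGT
gtb1 IV: ttGGTAAtT
gtb1 V: tctGTAtGT
gtb1 VI: tcGGTAAGT

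The whole sequence is given for 6 introns, the first 3 of *nda3* and introns II to IV of *gtb1*. Capitals mark the 5’ SS hexamer, the branch-like pentamer and the closing AG. The pentamer searched for was C or T, T, any base, A, then C or T, on the transcribed strand in the last 40 nt of the intron, taking the best match to CTAAC and then the one nearest the 3’ SS. Such a pentamer was found in 99.2% of the kept introns with a matched annotation, so a match is a description and not a mapped branch site.
nda3 I: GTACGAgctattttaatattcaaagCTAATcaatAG
nda3 II: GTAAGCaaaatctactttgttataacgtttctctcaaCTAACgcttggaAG
nda3 III: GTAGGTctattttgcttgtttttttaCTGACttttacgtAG
gtb1 II: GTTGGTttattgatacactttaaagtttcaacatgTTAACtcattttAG
gtb1 III: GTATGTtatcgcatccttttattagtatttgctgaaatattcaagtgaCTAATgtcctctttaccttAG
gtb1 IV: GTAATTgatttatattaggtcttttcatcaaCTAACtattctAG

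**Figure D1:**
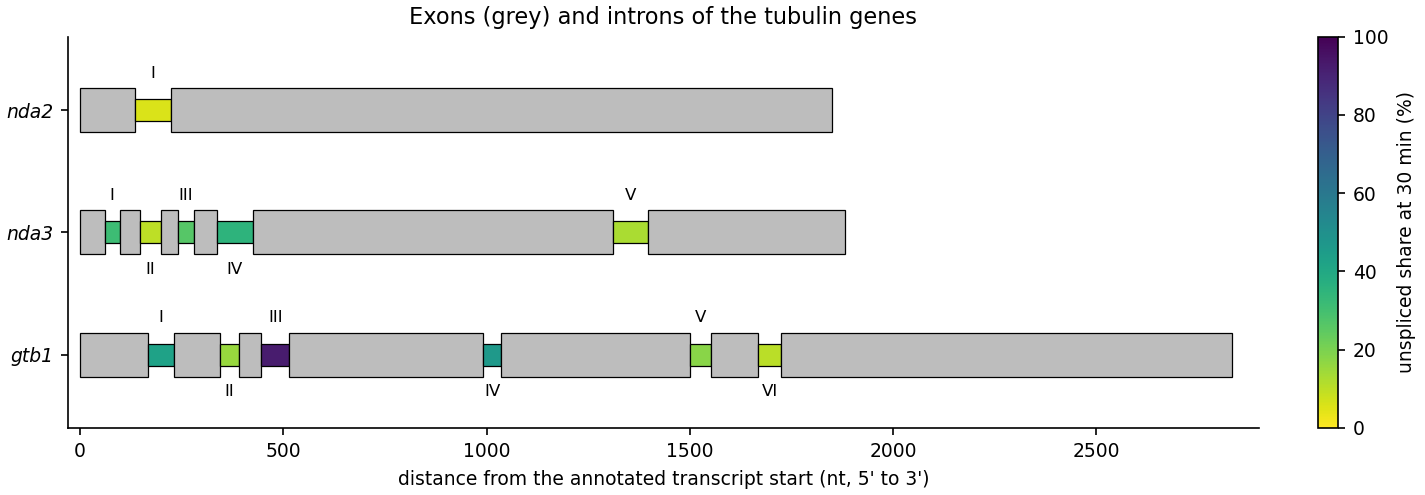
Exons (grey) and introns of *nda2*, *nda3* and *gtb1* drawn to scale from the annotated transcript start (x axis, nt), with each intron coloured by its unspliced share at 30 min. Intron III of *gtb1* is the darkest at 92.2%, while the introns beside it, II and IV, had 15.6% and 46.2%.

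The unspliced share of every tubulin intron was higher in the 30 min library than in the untreated one, but in *gtb1* I, II, V and VI the intervals overlapped. The share of all kept introns with any such rise was not computed. Of the 12, 1 intron, III of *gtb1*, came to be mostly unspliced. The RSEI fell by at least 1 at 30 min in 11 of the 12 introns, where 88.2% of all kept introns did so. It was below 0 at 30 min in 1 of the 12, against 37.6% of all kept introns. At 60 min the RSEI was at least 1 below the untreated value in 7 of the 12, against 77.2% of all kept introns, and again only *gtb1* III was below 0, against 24.2%. The share of tubulin introns that fell at 30 min was near the background. Their share with a RSEI below 0 was 1 of 12, and its difference from the background was not tested.

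The 30 min interval lay above the untreated one in 8 of the 12 introns, where 70.3% of all kept introns showed such a separation. At 60 min this held for 3 of the 12, against 51.6%. The interval at 60 min lay below that at 30 min in 4 of the 12, all in *nda3*, against 17.6%. These counts depend on depth. The introns of *nda3* had 269 to 1936 reads in a library, and those of *gtb1* had 14 to 116.

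*nda2* encodes the essential alpha tubulin, and its single intron had the highest RSEI of the 12 at each of the 3 times. Intron I, of 90 nt on the plus strand (chromosome II, 4269046 to 4269135), had 843 split and 12 unsplit reads at 0 min, 774 and 46 at 30 min, and 605 and 20 at 60 min. Unsplit reads made up 1.40% (0.727 to 2.44), 5.61% (4.14 to 7.41) and 3.20% (1.97 to 4.90) at 0, 30 and 60 min. The 30 min interval lay above that of untreated cells, while the 60 min interval overlapped both others. The RSEI was 6.02, 4.04 and 4.85, and the index fell by 1.98 at 30 min. At 30 min, 190 of the kept introns (4.56%) had a higher RSEI than this one.

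*nda3* encodes the only beta tubulin of fission yeast, on the minus strand. The RSEI of all 5 introns fell in the presence of inhibitor at 30 min, and none was below 0. All were higher at 60 than at 30 min, as were all 12 tubulin introns. The 60 min interval of the unspliced share lay below that of 30 min in only 4 of the 12, introns I to IV of *nda3*, against 17.6% of all kept introns. The share of all kept introns with any rise of the RSEI was not computed. The median change from 30 to 60 min over all kept introns was also a rise, of 0.78. Intron I (3965877 to 3965912) is 36 nt long, a length that 36 of the kept introns (0.863%) reached or undercut, and has the weakest U1 match of the 12, with 4 of 9 bases. It had 1754 split and 139 unsplit reads at 0 min, 1326 and 610 at 30 min, and 1422 and 327 at 60 min. These gave unspliced shares of 7.34% (6.21 to 8.61), 31.5% (29.4 to 33.6) and 18.7% (16.9 to 20.6), 3 values with separate intervals, and the RSEI was 3.65, 1.12 and 2.12.

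Intron II (3965776 to 3965826, 51 nt) was the best spliced of the gene. It had 1592 split and 47 unsplit reads at 0 min, 1487 and 164 at 30 min, and 1487 and 75 at 60 min. Its unspliced share was 2.87% (2.11 to 3.80), 9.93% (8.53 to 11.5) and 4.80% (3.80 to 5.98). The 60 min and untreated intervals met at 3.80 and were not counted as separate, while that of 30 min lay above both. The RSEI was 5.05, 3.17 and 4.29.

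Intron III (3965693 to 3965733, 41 nt) began at the level of intron II and had the largest change in RSEI within *nda3*. It had 1509 split and 44 unsplit reads at 0 min, 1388 and 499 at 30 min, and 1441 and 192 at 60 min. Unspliced shares of 2.83% (2.07 to 3.78), 26.4% (24.5 to 28.5) and 11.8% (10.2 to 13.4) followed, again with separate intervals. The RSEI was 5.07, 1.47 and 2.90. At 30 min it fell by 3.59, where that of intron II fell by 1.88. Both introns had 6 bases that match the complement of snRNA U1, but not at the same positions, and wobble pairs were not counted.

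Intron IV (3965549 to 3965637, 89 nt) differed from the others in its untreated level. It had 430 split and 88 unsplit reads at 0 min, 338 and 186 at 30 min, and 407 and 117 at 60 min. Before the inhibitor was added its unspliced share was 17.0% (13.9 to 20.5), above the untreated interval of every other *nda3* intron. It was 35.5% (31.4 to 39.8) at 30 min and 22.3% (18.8 to 26.1) at 60 min, and the 60 min interval overlapped that of untreated cells. The RSEI was 2.28, 0.86 and 1.79, so it fell by 1.42 at 30 min, and 17.3% of the kept introns had a lower untreated RSEI.

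Intron V (3964578 to 3964662, 85 nt) lies near the 3’ end of the coding sequence, after an exon of 886 nt. It had 257 split and 12 unsplit reads at 0 min, 272 and 39 at 30 min, and 245 and 30 at 60 min. Its unspliced share was 4.46% (2.33 to 7.66), 12.5% (9.07 to 16.7) and 10.9% (7.48 to 15.2), and the RSEI was 4.31, 2.77 and 2.99. Of the RSEI lost at 30 min this intron had regained 14.1% at 60 min, against 39.5% to 65.7% in the other 4 introns of *nda3*. Its 60 min interval overlapped both that of 30 min and that of untreated cells, so counting error leaves the size of this regain open.

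The number of junction reads differed along *nda3*. Intron I had 1893 reads in untreated cells and intron V had 269, and intron V took 4.58% to 4.93% of the reads of the gene at the 3 times. The exons between introns I and IV are only 50, 42 and 55 nt long, and a read that spans several of these junctions counts at each, so the first 4 introns are not independent measurements. The read length is not given in the sources used here.

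**Figure D2:**
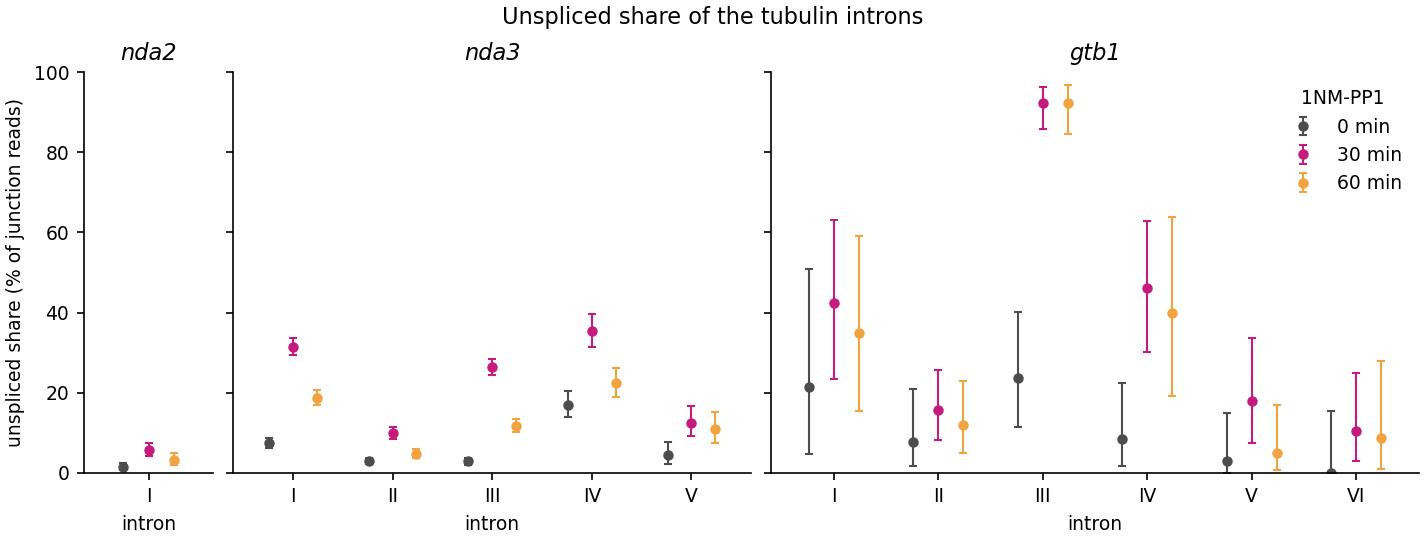
Unspliced share (y axis, % of junction reads) of each tubulin intron at 0, 30 and 60 min of 1NM-PP1, 1 library for each time; points are the measured shares and bars the exact 95% binomial intervals. Introns I to IV of *nda3* are higher at 30 min than at 0 and 60 min with separate bars at 30 min, while *gtb1* III stays at 92.2% at both times of inhibition.

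*gtb1* encodes gamma tubulin, on the plus strand, and its introns ranged from nearly spliced to nearly unspliced in the same libraries. Intron III (2791797 to 2791865, 69 nt) had 29 split and 9 unsplit reads at 0 min, 9 and 107 at 30 min, and 7 and 83 at 60 min. Its unspliced share was 23.7% (11.4 to 40.2), 92.2% (85.8 to 96.4) and 92.2% (84.6 to 96.8). The RSEI was 1.58, −3.43 and −3.39, so it fell by 5.02 at 30 min and had regained 0.810% of that fall at 60 min, against a median of 26.3% over all kept introns. Only 110 kept introns (2.64%) had a lower RSEI at 30 min and 38 (0.911%) at 60 min. A RSEI below 0 at both times was found in 981 kept introns (23.5%).

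Introns II and IV flank it, and neither was mostly unspliced. Intron II (2791694 to 2791742, 49 nt), the exon beside which is 54 nt long, had 36 split and 3 unsplit reads at 0 min, 65 and 12 at 30 min, and 52 and 7 at 60 min. Its unspliced share was 7.69% (1.62 to 20.9), 15.6% (8.32 to 25.6) and 11.9% (4.91 to 22.9), values that counting error does not separate. Its RSEI was 3.21, 2.34 and 2.73, and the difference of −0.87 at 30 min was the smallest of the 12 and the only one under 1 unit in the deposited RSEI, though it was −1.15 without the added read. At 30 min the intervals of introns II and III were separate within 1 library, and only that exon of 54 nt lies between them.

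Intron IV (2792343 to 2792386, 44 nt) had 33 split and 3 unsplit reads at 0 min, 21 and 18 at 30 min, and 12 and 8 at 60 min. Unsplit reads were 8.33% (1.75 to 22.5), 46.2% (30.1 to 62.8) and 40.0% (19.1 to 63.9) of the total, with the 30 min interval above that of untreated cells. The RSEI was 3.09, 0.21 and 0.53. It was the second lowest of the 12 introns at 30 min, after intron III.

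The other 3 introns of *gtb1* had few reads. Intron I (2791519 to 2791580, 62 nt) had 11 split and 3 unsplit reads at 0 min, 15 and 11 at 30 min, and 13 and 7 at 60 min. Its RSEI was 1.58, 0.42 and 0.81, and its unspliced shares of 21.4% (4.66 to 50.8), 42.3% (23.4 to 63.1) and 35.0% (15.4 to 59.2) could not be told apart at this depth. Introns I and III thus had the same untreated RSEI, and at 30 min they stood at 0.42 and −3.43.

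Intron V (2792852 to 2792901, 50 nt) had 34 split and 1 unsplit read at 0 min, 32 and 7 at 30 min, and 38 and 2 at 60 min. The unspliced share was 2.86% (0.0723 to 14.9), 17.9% (7.54 to 33.5) and 5.0% (0.611 to 16.9), and the RSEI was 4.13, 2.04 and 3.70. Intron VI (2793018 to 2793075, 58 nt) had 22 split and 0 unsplit reads at 0 min, a count of 0 that allows a share of up to 13.6% by the rule of 3 reads (3 of 22) and up to 15.4% by the exact interval, which was used for the overlap. It had 34 and 4 at 30 min and 21 and 2 at 60 min, or 10.5% (2.94 to 24.8) and 8.70% (1.07 to 28.0). Its RSEI was 4.52, 2.81 and 2.87. The changes of both introns passed 1 unit of RSEI at 30 min, but their intervals overlapped.

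The introns of *gtb1* therefore had no gradient along the gene. In 5’ to 3’ order the RSEI at 30 min was 0.42, 2.34, −3.43, 0.21, 2.04 and 2.81. The range between its highest and lowest intron was 2.94, 6.24 and 7.09 at 0, 30 and 60 min. Among 28 other genes with 6 kept introns the median range was 3.18, 4.72 and 4.59 at 0, 30 and 60 min, and 16, 6 and 2 of them exceeded *gtb1*. The ranges of *nda3* were 2.79, 2.31 and 2.50 at 0, 30 and 60 min. Among 56 other genes with 5 kept introns the median range was 2.72, 3.85 and 3.58, and 25, 47 and 50 of them exceeded *nda3*. The genes compared were not matched for depth.

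Ordered by the unspliced share at 30 min, the introns ran from *nda2* I through *nda3* II, *gtb1* VI, *nda3* V, *gtb1* II, *gtb1* V, *nda3* III, *nda3* I, *nda3* IV, *gtb1* I and *gtb1* IV to *gtb1* III. Neighbours in this order with separate intervals were *nda2* I and *nda3* II, *nda3* III and *nda3* I, and *gtb1* IV and *gtb1* III. All other neighbours overlapped.

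The RSEI rose by at least 1 between 30 and 60 min in 3 of the 12 introns, *nda3* II, *nda3* III and *gtb1* V, where 37.3% of all kept introns did so. Intron I of *nda3* was just under this limit at 1.00 after rounding. The differences at 60 against 30 min were 1.12 and 1.43 in *nda3* II and III and 1.66 in *gtb1* V. The 60 and 30 min intervals were separate in *nda3* II and III but overlapped in *gtb1* V, which rests on 2 and 7 unsplit reads. The median regain of the RSEI lost was 39.6% over the 12 tubulin introns.

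**Figure D3:**
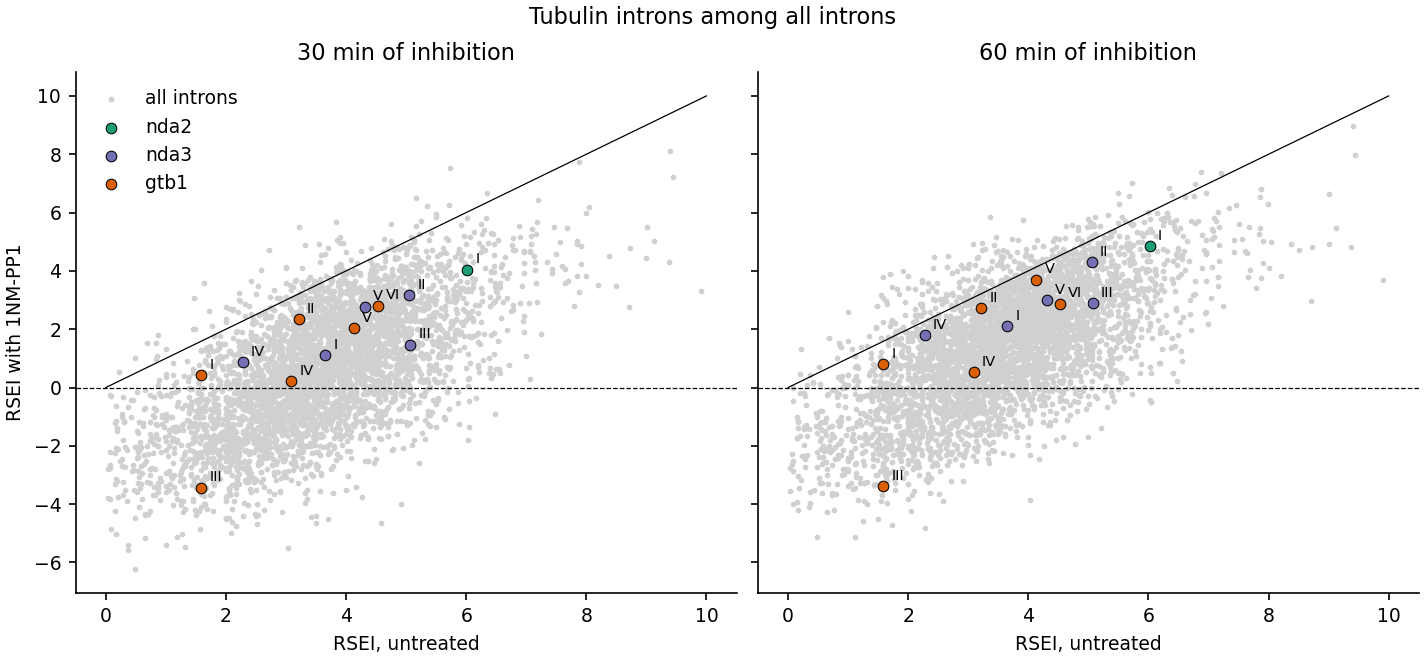
RSEI at 30 min (left) and 60 min (right) of 1NM-PP1 (y axes) against the RSEI of untreated cells (x axes) for all 4171 kept introns (grey) and the 12 tubulin introns (coloured, roman numerals give the intron). The solid line marks equal values and the dashed line a RSEI of 0; *gtb1* III alone of the tubulin introns lies below 0, at −3.43 and −3.39.

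Summed over its introns, *nda3* had 5542 split and 330 unsplit reads at 0 min, 4811 and 1498 at 30 min, and 5002 and 741 at 60 min. Its unspliced share was 5.62% (5.04 to 6.24), 23.7% (22.7 to 24.8) and 12.9% (12.0 to 13.8) at 0, 30 and 60 min. For *gtb1* the share was 10.3% (6.33 to 15.7), 47.5% (42.0 to 53.0) and 43.3% (37.1 to 49.6). Intron III alone supplied 47.4%, 67.3% and 76.1% of the unsplit reads of *gtb1* at 0, 30 and 60 min. Without it, the *gtb1* share was 6.85% (3.33 to 12.2), 23.7% (18.3 to 29.9) and 16.0% (10.8 to 22.6), close to that of *nda3*. The median over 1238 genes with at least 100 junction reads in each library was 6.58%, 34.1% and 23.5%.

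Junction reads of a gene were also set against all junction reads of the library, a measure that moves with both RNA level and splicing and is not expression per gene. *nda2* had 939, 962 and 841 reads per 1000000 junction reads at 0, 30 and 60 min, and *nda3* had 6450, 7400 and 7725. *gtb1* had 202, 393 and 339. After adding 1 read, the ratio to untreated cells was 1.94 at 30 min (exact 95% interval 1.62 to 2.34) and 1.67 at 60 min (1.38 to 2.04) for *gtb1*, and without its intron III 1.60 and 1.36.

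Split reads were then taken alone. For *gtb1* there were 181, 206 and 192 split reads per 1000000 junction reads at 0, 30 and 60 min, a ratio of 1.14 at 30 min and 1.06 at 60 min. For *nda2* the ratio of split reads was 0.981 at 30 min and 0.879 at 60 min, and for *nda3* it was 0.927 and 1.11. The medians over the 1238 genes were 0.725 and 0.875, so at 30 min the summed ratio of each tubulin gene was above that of the median gene. For *gtb1* this sum joins introns that moved in different directions. Split reads per 1000000 junction reads at 0 and 30 min were 31.9 and 10.6 in intron III and 36.2 and 24.6 in intron IV. They were 39.5 and 76.2 in intron II, and introns I, V and VI were also higher at 30 min. The summed value is therefore not a measure of fully spliced *gtb1* RNA. Scaled to all junction reads after adding 1 read, the ratio of unsplit reads at 30 min to untreated cells was 8.54 for *gtb1*. It was 4.84 for *nda3* and 3.86 for *nda2*, against a median of 5.07. Because the share of unsplit reads differed between the libraries, these ratios depend on the total they are scaled to, and for *nda2* at 60 min the ratio of all reads was 0.896 scaled to all junction reads but 1.08 scaled to split reads.

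**Figure D4:**
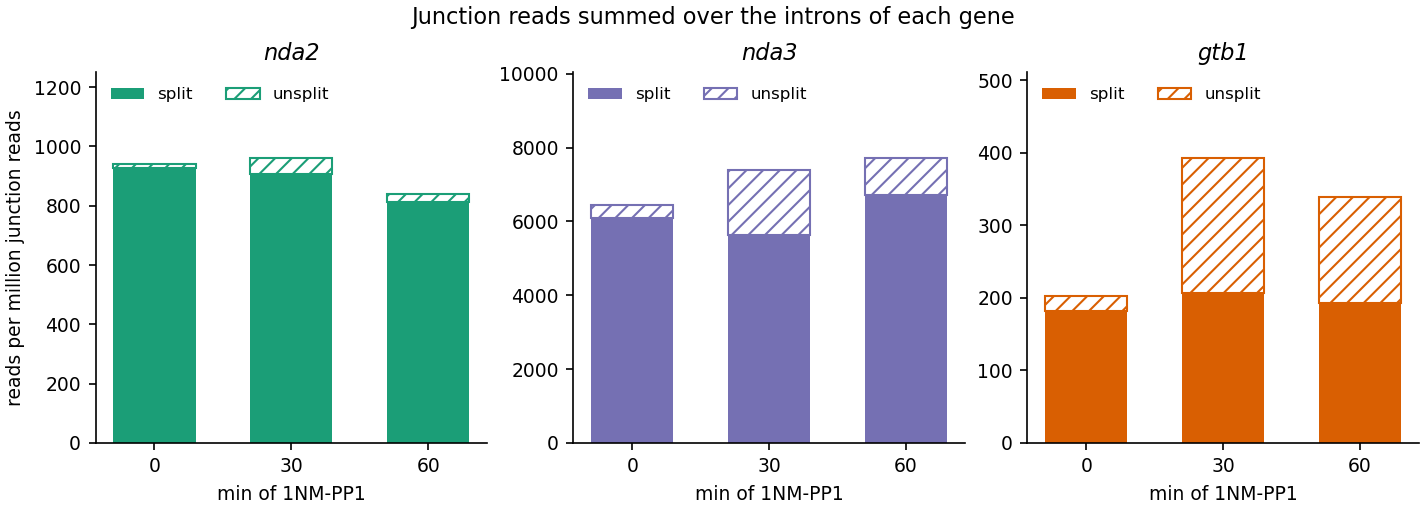
Split (filled) and unsplit (hatched) reads per 1000000 junction reads of the library (y axes, each from 0), summed over the introns of *nda2*, *nda3* and *gtb1* at 0, 30 and 60 min of 1NM-PP1. In *gtb1* the filled part stays near 181 to 206 and the hatched part grows, and in *nda2* the hatched part is small at every time.

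The 3 genes most like each tubulin gene in summed RSEI over the 3 libraries were found by Euclidean distance among the 1238 genes. For *nda2* these were *rps1701* (distance 0.42), *rpl1602* (0.47) and *nse2* (0.55). For *nda3* they were SPBC725.08 (0.12), *npl4* (0.13) and SPBC31F10.16 (0.20). For *gtb1* they were SPCC777.06c (0.26), *dbr1* (0.27), the debranching enzyme of intron lariats, and SPBC32H8.05 (0.29). SPCC777.06c and SPBC32H8.05 have 1 intron each and *dbr1* has 4. The likeness is thus one of summed reads and does not extend to the single introns of *gtb1*.

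The 5’ SS hexamer did not order the tubulin introns by RSEI. GTATGT, the hexamer of 881 kept introns (21.2%) with a median RSEI of 1.07 at 30 min, stands at the start of 5 tubulin introns. Their RSEI at 30 min was 4.04 in *nda2* I, 2.77 in *nda3* V, 2.04 in *gtb1* V, 0.42 in *gtb1* I and −3.43 in *gtb1* III. The same 6 bases thus stood at the highest and the lowest RSEI of the 12. *nda2* I and *nda3* V also share a paired G at the last exon base, while the exon ends before *gtb1* I, III and V hold no G there. The exon ended in G at 7 of the 12 tubulin introns and at 57.6% of the kept introns.

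GTAGGT opened *nda3* III and IV, which were at a RSEI of 1.47 and 0.86 at 30 min. It is the hexamer of 60 kept introns, with a median of 0.77. The RSEI of intron III fell by 3.59 and that of intron IV fell by 1.42. The others each had a hexamer of their own: GTACGA in *nda3* I (49 kept introns, median 0.03), GTAAGC in *nda3* II (166, median 0.46) and GTAATT in *gtb1* IV (47, median −0.87). GTAAGT, the hexamer that matches the complement of snRNA U1 at all 6 positions, was found in *gtb1* VI and in 1160 kept introns with a median of 1.29. GTTGGT opened *gtb1* II, the intron with the smallest change, and only 12 kept introns have it, with a median of −0.83.

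The number of bases that match the complement of snRNA U1 from −3 to +6 ran from 4 to 7 in the tubulin introns. Wobble pairs were not counted. The median was 6 in both the 12 and the kept introns. Over the kept introns the median RSEI at 30 min was −1.73 with 4 matched bases, −0.42 with 5, 0.68 with 6 and 1.28 with 7. *nda3* I had 4 and a RSEI of 1.12. *gtb1* III and V had 5, at −3.43 and 2.04, so 1 lay far under and the other above the median of its class. None of the 3 exon bases of *gtb1* III and V matched, as in *nda3* I, though G-U wobble pairs are possible in the exon ends of *gtb1* III and V.

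**Figure D5:**
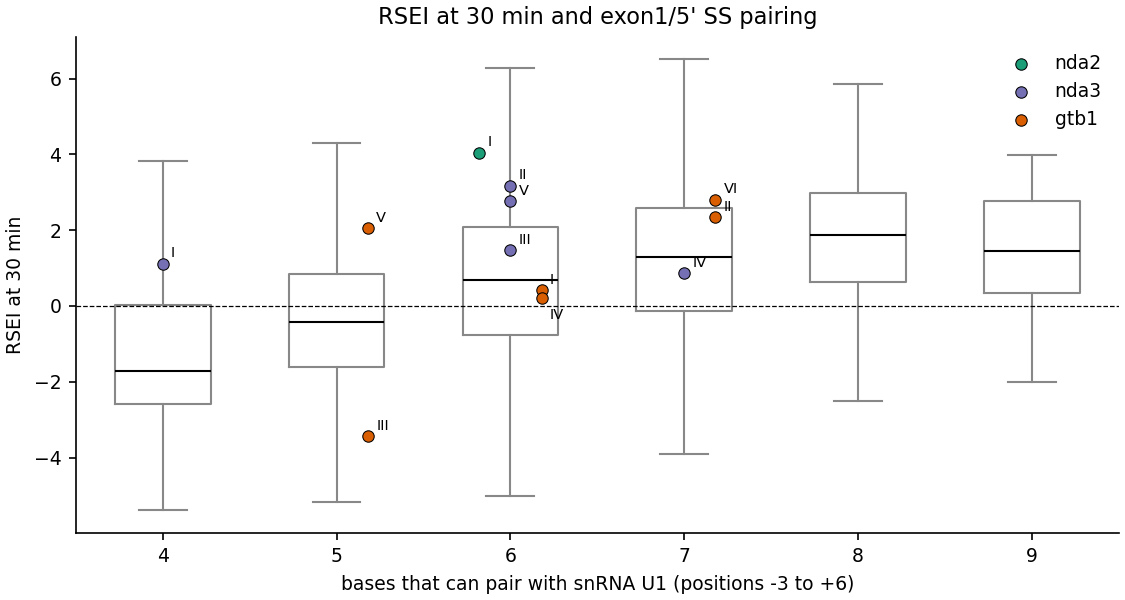
RSEI at 30 min (y axis) by the number of bases that match the complement of snRNA U1 at positions −3 to +6 (x axis, wobble pairs not counted). Boxes are kept introns with 4 to 9 such bases (quartiles, lines the median, whiskers reach to 1.5 times the box height, outliers not drawn). Points are the 12 tubulin introns. *gtb1* III and V share the class of 5 bases and lie at −3.43 and 2.04.

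Between the 5’ SS and the 3’ SS the introns also varied. CTAAC, the most frequent branch-like pentamer (45.5% of kept introns), was in *nda2* I, *nda3* II and V and *gtb1* IV, and CTAAT (22.7%) was in *nda3* I and *gtb1* III, V and VI. CTGAC (5.25%) was in *nda3* III and IV, TTAAC (15.7%) in *gtb1* II and CTCAC (1.01%) in *gtb1* I. From the A of the pentamer there were 17 bases to the end of *gtb1* III, the longest distance of the 12, which ran from 7 in *nda3* I upwards. The median of the kept introns was 11, and 7.48% had a distance of at least 17. Introns *gtb1* III and VI, at a RSEI of −3.43 and 2.81 at 30 min, carried the same pentamer.

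Intron length was 36 to 90 nt in the tubulin genes, with a median of 54.5 nt against 56 nt for the kept introns. Length was a multiple of 3 in 4 of the 12 (*nda2* I, *nda3* I and II and *gtb1* III), against 32.3% of kept introns. If an intron is left in an otherwise spliced mRNA and read in frame, the first stop codon lies inside the intron in 10 of the 12. In *nda3* IV and *gtb1* V it lies in a later exon. The share of all kept introns with a stop inside was not computed, so this count has no background. With the codons inside the intron counted, the frame would end after 87 codons with *gtb1* III retained and after 40 with *nda2* I retained, where the spliced frames have 446 and 455. In *nda3*, with a spliced frame of 448 codons, it would end after 15, 21, 35, 97 and 372 codons for introns I to V. These are readings of the reference sequence, and no protein was measured.

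A noncoding gene on the opposite strand, SPNCRNA.5820, overlaps introns I to IV of *gtb1* in the annotation, and SPNCRNA.6519 overlaps *nda2* I. The libraries were directional and the alignment used the orientation of the reads. Whether the junction counts were also made by strand is not given in the sources used here, and the part of such transcripts in the unsplit reads was not tested. Introns II and III of *gtb1* lie in the same overlap and had unspliced shares of 15.6% and 92.2% at 30 min. How reads of SPNCRNA.5820 were spread over these introns was not tested.

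The other genes of tubulin folding and microtubule function had a lower median RSEI than the tubulin introns at 30 and 60 min. Of 53 genes listed, 30 had a junction in the table and 23 have no annotated intron, among them *atb2*, which encodes the second alpha tubulin. Their 56 kept introns, in 29 genes, had a median RSEI of 3.93, 0.03 and 1.04 at 0, 30 and 60 min. The RSEI fell by at least 1 at 30 min in 53 of the 56 and was below 0 in 26, against the 88.2% and 37.6% of all kept introns given above. At 60 min it was below 0 in 15 of the 56, near the 24.2% of all kept introns.

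The tubulin folding cofactors bring alpha and beta tubulin together in the dimer. Of their 8 kept introns, 7 fell at 30 min and 5 were below 0, against 88.2% and 37.6% of all kept introns. Both ends of this list were in *alp1*, which encodes cofactor D. Its intron I had 39 split and 1 unsplit read at 0 min, 18 and 56 at 30 min, and 23 and 25 at 60 min, or a RSEI of 4.32, −1.58 and −0.12. Its intron VI stood at 4.39, 3.77 and 2.67.

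The gamma tubulin complex and its tethers hold Gtb1 at the organising centres. They had 4 kept introns, of which 3 fell at 30 min and 2 were below 0, too few to set against the same 88.2% and 37.6%. The lowest was intron I of *mod21*, a subunit of the complex, with 21 split and 2 unsplit reads at 0 min, 4 and 19 at 30 min, and 16 and 8 at 60 min. The RSEI was 2.87, −2.0 and 0.92 there, so the larger part of its fall was regained at 60 min, unlike *gtb1* III. The highest was intron II of *alp6*, another subunit, at 3.57, 3.07 and 3.05.

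The chaperonin CCT and prefoldin fold newly made tubulin. Of their 26 kept introns, 25 fell at 30 min, against the background of 88.2%, and 10 were below 0, near the 37.6% of all kept introns. The lowest was intron III of SPAC3A11.13, listed as the prefoldin subunit *pfd6*, with a RSEI of 2.97, −2.50 and −1.58, and the highest was intron II of *cct1*, a chaperonin subunit, with 6.95, 4.69 and 5.07. Microtubule-associated proteins and motors had 18 kept introns, all of which fell at 30 min, against 88.2% of all kept introns, and 9 were below 0, against 37.6%. The lowest was intron I of the kinesin gene *klp2*, with 19 split and 6 unsplit reads at 0 min, 5 and 49 at 30 min, and 7 and 37 at 60 min. Its RSEI of 1.51, −3.06 and −2.25 came nearest to *gtb1* III among the introns named from these lists. The highest was intron II of the kinesin gene *klp3*, at 5.21, 4.12 and 2.89.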

How the data were processed

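Directional poly(A) RNA libraries of the *prp4-as2* strain were compared at 0, 30 and 60 min of 1NM-PP1, with 1 library for each time. The authors removed adapters with TagDust, aligned reads with TopHat (v2.0.5) using the annotation ASM294 v1.15 and read orientation, and deposited counts of uniquely mapped split and unsplit reads at each 5’ exon junction (a window of 3 bases), without normalisation. The processing notes also name SAMtools. The deposited log2 values are the RSEI, and in each of the 5374 lines they match log2((split + 1)/(unsplit + 1)). Of these, 6 lines repeat a junction and were dropped.

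The tubulin introns, the gene lists and the rules were chosen with earlier results of these data known. Introns were kept if they had over 10 reads in every library and a positive untreated RSEI. A change was called at 1 unit of RSEI or by separate exact 95% intervals, and no p-values were computed. Every tubulin intron is named, as are the intron with the lowest and the highest RSEI at 30 min of each list and the 3 nearest genes of each tubulin gene. Read totals are junction reads and not the depth of a library.

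Junctions were matched to introns of at least 20 nt in RefSeq ASM294v3, a later build than that of the authors. 5187 of 5368 junctions lay at an annotated 5’ SS, and 5279 of 5362 on chromosomes I to III were followed by GT. Coordinates are 1-based and sequences were credited to that assembly. Python 3.11.15, numpy 2.4.6, pandas 2.3.3, scipy 1.17.1 and matplotlib 3.10.9 were used, and the calculations were tested on simulated data. Other pseudocounts, read minimums, call rules and scalings were tried.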

Additional observations from a re-analysis of the deposited data

How the results depend on the processing

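No paired analysis was possible because each time had 1 library, and for the same reason no replicate could be left out. No RSEI change turned its direction, and the 71 RSEI values recomputed with a pseudocount of 0 or 0.5 moved by less than their counting error. Intron VI of *gtb1* has no untreated value without a pseudocount. The change of *gtb1* II at 30 min was −0.99 with a pseudocount of 0.5 and −1.15 with 0, where it passes 1 unit, and without a pseudocount *nda3* I also rose by 1.00 between 30 and 60 min. With at least 50 reads in each library 6 introns could be used, all 6 fell at 30 min and 4 at 60 min (all kept introns 88.4% and 76.5%), and 0 were below 0 at 30 or 60 min (29.9% and 18.3%), since *gtb1* III had too few untreated reads to be kept. With a change of 2 units, 5 of the 12 fell at 30 min, 3 fell at 60 min and 0 rose between 30 and 60 min, against 71.1%, 52.7% and 5.32% of all kept introns. With separate intervals 3 changed at 60 min against untreated cells.

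As a mean over introns the unspliced share of *nda3* was 6.90% at 0 min, and that of *gtb1* was 37.5% at 30 min and 32.1% at 60 min. Without the most-read intron the share of *nda3* was 4.80%, 20.3% and 10.4% at 0, 30 and 60 min. The most-read intron of *gtb1* is III, so its shares of 23.7% and 16.0% at 30 and 60 min repeat those without intron III in the Results. Scaled to split reads, the ratio of junction reads to untreated cells was 1.36 and 1.08 for *nda2* and 1.53 and 1.44 for *nda3* at 30 and 60 min, so that *nda2* at 60 min moved from under 1 to above it, and 2.58 for *gtb1* at 30 min. Scaled by the median ratio of the kept introns, *nda3* was at 1.05 and 1.10. With each of the other microtubule genes counted once, 29 of 29 fell at 30 min and 14 were below 0, against 92.7% and 37.7% of 2139 genes. Depth limits *gtb1* most, where 14 reads at intron I leave a share of 21.4% open between 4.66 and 50.8%.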
